A study of Mus musculus with 24 samples.

Results

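The genes described here were 10 genes of the actin and smooth muscle contractile system, Acta2, Actg2, Tagln, Myl9, Cnn1, Cnn2, Tpm1, Tpm2, Gsn and Srf. They were followed in brite adipocytes, cells of white fat that were switched towards the heat production of brown fat, with and without knockdown (KD) of the long noncoding RNA Ctcflos. The members were found by their symbols among 52089 symbols of a transcript table, in which 79 of 168326 entries carried a symbol of a member. For each symbol the RefSeq mRNA entry with the highest mean over the 24 libraries was used, so the average level chose the entry and that level is given as a description.

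The cells were primary preadipocytes from the stromal vascular fraction of inguinal white fat of 129SvEv mice, named 129S6sv/ev in the methods and described there as male and a few weeks old. They were induced, differentiated for 1 day with rosiglitazone, trypsinised and seeded again together with 50 nM of an antisense gapmer, a short oligonucleotide with locked ends that makes RNase H cut the RNA it pairs with. The gapmer was aimed at transcript 1 of Ctcflos in the KD groups and had no cellular target in the control (NC) groups. RNA was harvested 24 h or 72 h later in 6 libraries for each of the 4 groups, KD and NC at either time. All groups shared the rosiglitazone, the trypsin step and the transfection, a single gapmer was used for the knockdown, and the samples were bulk cultures of a mixed stromal fraction.

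Actin filaments that slide against myosin give smooth muscle and activated stromal cells their contractile force, and tropomyosins, calponins and transgelin bind along or across those filaments. Many of these genes are transcribed through serum response factor (SRF), which binds a DNA element called the CArG box and works with cofactors that sense how much actin is free as monomers. Preadipocytes in culture carry actin stress fibres, and fat cell differentiation is known for the loss of these fibres as the cells round up and fill with lipid.

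The libraries held between 1391832 and 5423840 mapped reads (median 3945867), by totals recovered from the table. The total of NC 72 h replicate 6 is uncertain. NC 72 h replicates 2 and 3 differed by less than sampling noise and were averaged as 1 sample, so NC 72 h had n = 5 and 23 samples were compared. Apart from their groups, the libraries split into 2 clusters, a larger one with 16 libraries and a smaller one with 8, defined from the deviations of other genes from the group means. The smaller cluster held KD 24 h replicates 3 and 4, NC 24 h replicates 5 and 6, KD 72 h replicates 5 and 6, and NC 72 h replicates 4 and 5. What set these libraries apart was not tested, and each comparison of the members is given with and without account of the clusters. The clusters came from the same libraries that are compared, and fits that use them take them as known. Their p-values can therefore be too small. The most abundant RefSeq entry of Ctcflos (1300015D01Rik) lay at 0.916 to 1.86 RPKM in NC 72 h and 0 to 0.44 in KD 72 h, a log2 fold change of -2.49 ± 0.48 (SE, limma, adjusted p = 0.0022). At 24 h it lay at 0.192 to 1.45 in NC and 0 to 0.555 in KD, too few reads to be tested. The entry of transcript 1 itself (ENSMUST00000144256) had too few reads at both times, with 0.17 to 0.837 in NC 24 h, 0 to 0.965 in KD 24 h, 0.122 to 2.51 in NC 72 h and 0 to 0.453 in KD 72 h. The groups overlapped in this entry, and at 24 h the highest value was a KD sample.

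The members lie on 7 chromosomes of the mouse genome (GRCm38). Acta2 lies at chr19:34240336-34255585 on the minus strand and Actg2 at chr6:83512909-83536251 on the minus strand. Tagln lies at chr9:45929628-45936058 on the minus strand and Myl9 at chr2:156775408-156781657 on the plus strand. Cnn1 lies at chr9:22099221-22109221 on the plus strand and Cnn2 at chr10:79988600-79995400 on the plus strand. Tpm1 lies at chr9:67022590-67049672 on the minus strand and Tpm2 at chr4:43513726-43523583 on the minus strand. Gsn lies at chr2:35256359-35307902 on the plus strand and Srf at chr17:46546838-46558267 on the minus strand.

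Promoter windows of RefSeq (GRCm38.p6) were read for 8 of the 10 genes, all but Actg2 and Tagln. A CArG box, searched by its full consensus in the 250 bases before the start site, was found for Myl9, Cnn2 and Srf. The windows start from the RefSeq start site, and GENCODE exons cover 217 of the 250 bases for Acta2, 193 for Tpm1 and 106 for Tpm2, so for these genes the search covered less sequence upstream of the annotated exons and a missing match says nothing of a box elsewhere. The element reads the same on both strands, and 482 of 32851 windows of all genes held it, a share of 1.47%. A match describes the letters only and is not evidence of binding. The stretches around the boxes are shown because the factor that reads them, SRF, is itself a member. Capitals mark the box, which starts 161 bases before the start site in Myl9 (chr2:156775263-156775352, plus strand), 56 bases before it in Cnn2 (chr10:79988504-79988583, plus strand), and 82 and 62 bases before it in Srf (chr17:46556176-46556284, minus strand). The start site of the Srf window (chr17:46556162) and the stretch shown lie inside the span given above for Srf, and not upstream of that span.
Myl9: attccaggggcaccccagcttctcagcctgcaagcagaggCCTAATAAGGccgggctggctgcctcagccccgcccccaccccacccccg
Cnn2: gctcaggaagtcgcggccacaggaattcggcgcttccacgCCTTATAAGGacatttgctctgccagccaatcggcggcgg
Srf: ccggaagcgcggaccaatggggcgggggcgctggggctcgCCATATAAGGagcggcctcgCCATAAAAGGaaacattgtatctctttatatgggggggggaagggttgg

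Levels were given as RPKM, reads scaled by transcript length and by the mapped reads of the library, and scaled over all samples. As reads come from the 3′ ends of transcripts, dividing by length lowers long transcripts relative to short ones, and the order of the genes given here is an order of this unit and not of transcript numbers. Acta2 shows the size of this: its entry of 843 bases (AK002886) had a mean of 762 RPKM from 2734 reads, and the entry of 1780 bases used here (NM_007392) had 374 from 2835 reads. Gsn, which encodes the actin-severing protein gelsolin, had the highest mean in NC 24 h with 878 ± 62.1 (SD, n = 6). It was followed by Acta2, the smooth muscle alpha actin, with 607 ± 344, and Tagln, the actin-binding protein transgelin, with 226 ± 110. Their ranges in NC 24 h were 812 to 959, 360 to 1114 and 146 to 369, so that Gsn and Acta2 overlapped. Tpm1 followed with 134 ± 64.9, and Myl9, a regulatory light chain of smooth muscle myosin, with 54.9 ± 34.9. Tpm2 (29.1 to 71.8) and Cnn2 (22.6 to 54.8) overlapped with Myl9 (27.9 to 106) and with each other. Actg2, the smooth muscle gamma actin, reached 10.1 ± 7.51, Cnn1, the calponin of differentiated smooth muscle, 2.27 ± 1.83, and Srf 1.63 ± 0.418. Cnn1 and Srf overlapped in range and rested on few reads, on average 20 and 28.5 per NC 24 h library, so that their order by reads was the opposite, whereas Acta2 rested on 4645 and Gsn on 9206.

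**Figure D1:**
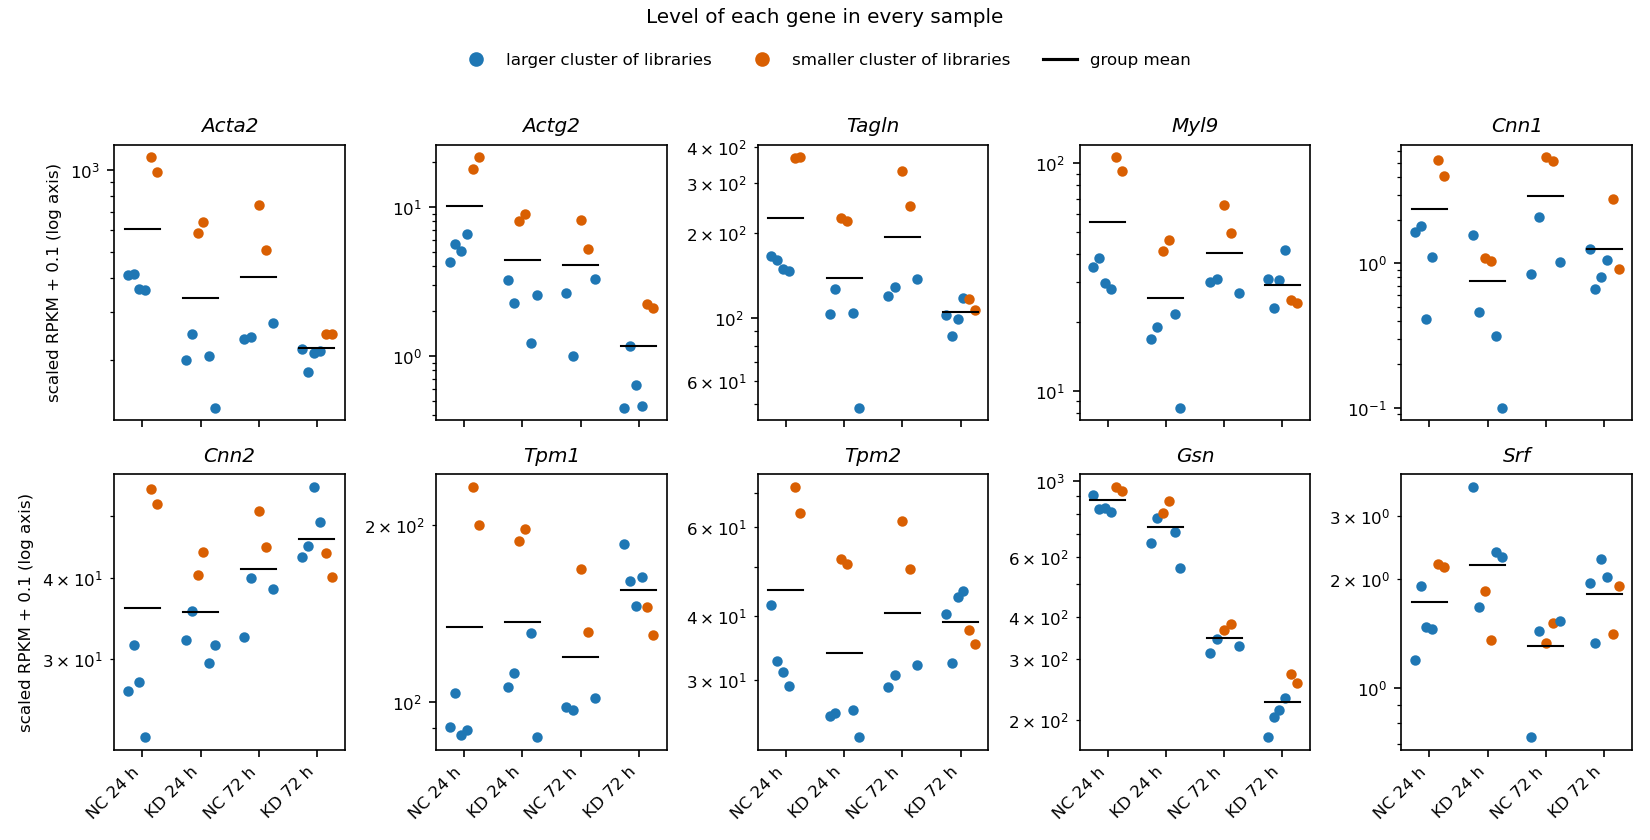
Scaled RPKM plus 0.1 on a log axis for each of the 10 genes, 1 point per sample coloured by library cluster, with a line at the group mean. Acta2 of NC 24 h ran from 360 to 1114 with the 2 smaller-cluster samples highest, whereas Gsn of NC 72 h (313 to 382) lay wholly below Gsn of NC 24 h (812 to 959).

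The first comparison asked how the genes moved in control cells between 24 h and 72 h, while the cells went on to differentiate. Gsn fell and was the single gene of the 10 that passed the test, against 9.15% of the 52693 entries tested (4.51% lower and 4.64% higher). Acta2 and Actg2 had lower means at 72 h without passing it. The members had a median log2 fold change of -0.26 against 0.01 over all entries, with 8 lower and 2 higher, and 2 of the 10 reached an unadjusted p under 0.05, both lower.

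Gsn lay at 812, 871 and 959 (lowest, median, highest) in NC 24 h and at 313, 344 and 382 in NC 72 h. Every sample of the later group was below every sample of the earlier one, as for 3.84% of all entries tested. The difference was -1.34 ± 0.072 on the log2 scale (limma, adjusted p = 1.6e-07), so that 39.6% of the 24 h level was left, and it was already known when the gene was chosen. All 9 of its 11 entries that passed the filter were lower as well, at log2 fold changes of -1.34 to -1.33, and they share reads. Gelsolin cuts and caps actin filaments in response to calcium.

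Acta2 lay at 360, 412 and 1114 in NC 24 h and at 238, 273 and 746 in NC 72 h. The groups overlapped, because the smaller-cluster samples of NC 72 h (509 and 746) lay above the larger-cluster samples of NC 24 h (360 to 413). The difference was -0.58 ± 0.36 (limma, adjusted p = 0.39). With the cluster as a covariate it was -0.67 ± 0.089 (limma, adjusted p = 0.00012), with the larger cluster alone -0.63 ± 0.079 (limma, adjusted p = 0.00056), and with the smaller cluster alone -0.75 ± 0.16 (limma, adjusted p = 0.036).

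Actg2 lay at 4.20, 6.01 and 21.4 in NC 24 h and at 0.904, 3.20 and 8.07 in NC 72 h. The groups overlapped, and the highest samples of both were again those of the smaller cluster. The difference was -1.33 ± 0.53 (limma, adjusted p = 0.14), and -1.45 ± 0.27 with the cluster as a covariate (limma, adjusted p = 0.0020). In all, 4 of the 10 genes were called lower with the covariate, Acta2, Actg2, Tagln and Gsn, against 13.7% of all entries called and 6.62% called lower. The larger cluster alone called 3, all lower (10.2% of all entries, 4.88% lower), and the smaller cluster alone 4, all lower (3.36% of all entries, 1.78% lower), which were Acta2, Actg2, Gsn and Myl9. Tagln had -0.22 ± 0.32 without the covariate (limma, adjusted p = 0.75) and -0.30 ± 0.074 with it (limma, adjusted p = 0.015).

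Without account of the clusters the other members were not called over time in control cells. Myl9 had a log2 fold change of -0.30 ± 0.36, Tpm1 of -0.07 ± 0.26, Tpm2 of -0.12 ± 0.26, Cnn2 of 0.27 ± 0.22, Cnn1 of 0.33 ± 0.64 and Srf of -0.41 ± 0.26, with adjusted p-values of limma from 0.39 to 0.91. Their 95% intervals were wide, from -0.63 to 0.49 for Tpm1 and from -1.05 to 1.70 for Cnn1, so that changes of moderate size were not detectable. Myl9 was called in the smaller cluster alone, at -0.79 ± 0.16 (limma, adjusted p = 0.029), and not in the larger, at -0.16 ± 0.13 (limma, adjusted p = 0.53).

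The second comparison asked which of the genes responded to the knockdown within 24 h. Without account of the clusters, none of the 9 genes tested passed, against 22.7% of the 52005 entries tested (11.6% lower and 11.1% higher). Of the 9, 4 reached an unadjusted p under 0.05, all lower, and limma with voom weights on the recovered reads also called 0. The count became 4 without KD 24 h replicate 4, 3 without KD 24 h replicate 3 and 1 without NC 24 h replicate 3. Cnn1 had too few reads for the filter. The median of the 9 was -0.39 against -0.01 over all entries, with 6 lower and 3 higher. With the cluster as a covariate, 6 of the 9 fell (Acta2, Actg2, Tagln, Myl9, Tpm2 and Gsn), against 27.5% of all entries called and 14.1% called lower.

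Acta2 lay at 133, 227 and 641 in KD 24 h and at 360, 412 and 1114 in NC 24 h. The groups overlapped through the 2 smaller-cluster samples of KD 24 h (588 and 641). In the larger cluster the 4 KD samples ran from 133 to 248 and the 4 NC samples from 360 to 413. In the smaller cluster the 2 KD samples had 588 and 641 and the 2 NC samples 980 and 1114. The difference was -0.91 ± 0.40 without the cluster (limma, adjusted p = 0.11) and -0.91 ± 0.13 with it (limma, adjusted p = 0.00030), or 53.2% of the control level. Within the clusters it was -1.01 ± 0.17 in the larger (limma, adjusted p = 0.0030) and -0.76 ± 0.080 in the smaller (limma, adjusted p = 0.0058).

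Tagln, which like Acta2 marks contractile and activated stromal cells, lay at 48.3, 115 and 225 in KD 24 h and at 146, 163 and 369 in NC 24 h. The lowest value belonged to KD 24 h replicate 6, the library with the fewest reads. The difference was -0.74 ± 0.35 (limma, adjusted p = 0.14) and with the cluster -0.74 ± 0.17 (limma, adjusted p = 0.0070). Myl9 lay at 8.32, 20.3 and 45.8 in KD 24 h and at 27.9, 36.5 and 106 in NC 24 h. Its difference was -1.09 ± 0.42 (limma, adjusted p = 0.073) and with the cluster -1.09 ± 0.19 (limma, adjusted p = 0.0014). Both genes were also called in each cluster alone, at -0.78 and -0.72 for Tagln and at -1.06 and -1.19 for Myl9.

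Actg2 lay at 1.13, 2.79 and 8.92 in KD 24 h and at 4.20, 6.01 and 21.4 in NC 24 h. It differed by -1.24 ± 0.52 (limma, adjusted p = 0.094), and by -1.24 ± 0.22 with the cluster (limma, adjusted p = 0.0017), so that 42.4% of the control level was left. Tpm2, the beta tropomyosin, differed by -0.39 ± 0.27 (limma, adjusted p = 0.31) and with the cluster by -0.39 ± 0.11 (limma, adjusted p = 0.015). Gsn differed by -0.26 ± 0.11 (limma, adjusted p = 0.087) and with the cluster by -0.26 ± 0.085 (limma, adjusted p = 0.036). The larger cluster alone called 4 of 9, all lower (25% of all entries called, 13% lower), and the smaller cluster alone 5 of 10, all lower (2.95% of all entries called, 1.59% lower).

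Cnn1 was called in the smaller cluster alone, at -2.09 ± 0.35 (limma, adjusted p = 0.022), where its KD samples lay at 0.932 and 0.989 and its NC samples at 3.91 and 5.08. In KD 24 h replicate 6 it had 0 reads, and the 3-read limit of that library was 0.972 scaled RPKM, which lies within the range of the other KD 24 h samples. The other 3 members were called in no direction. Tpm1 differed by 0.11 ± 0.27 (95% interval -0.48 to 0.69), Cnn2 by 0.07 ± 0.21 (-0.38 to 0.52) and Srf by 0.32 ± 0.26 (-0.24 to 0.88), with limma adjusted p-values from 0.40 to 0.84. None of these 3 was called with the covariate either. Of the genes whose CArG boxes are printed above, Myl9 was therefore called lower with the covariate at 24 h, and Cnn2 and Srf were not called.

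**Figure D2:**
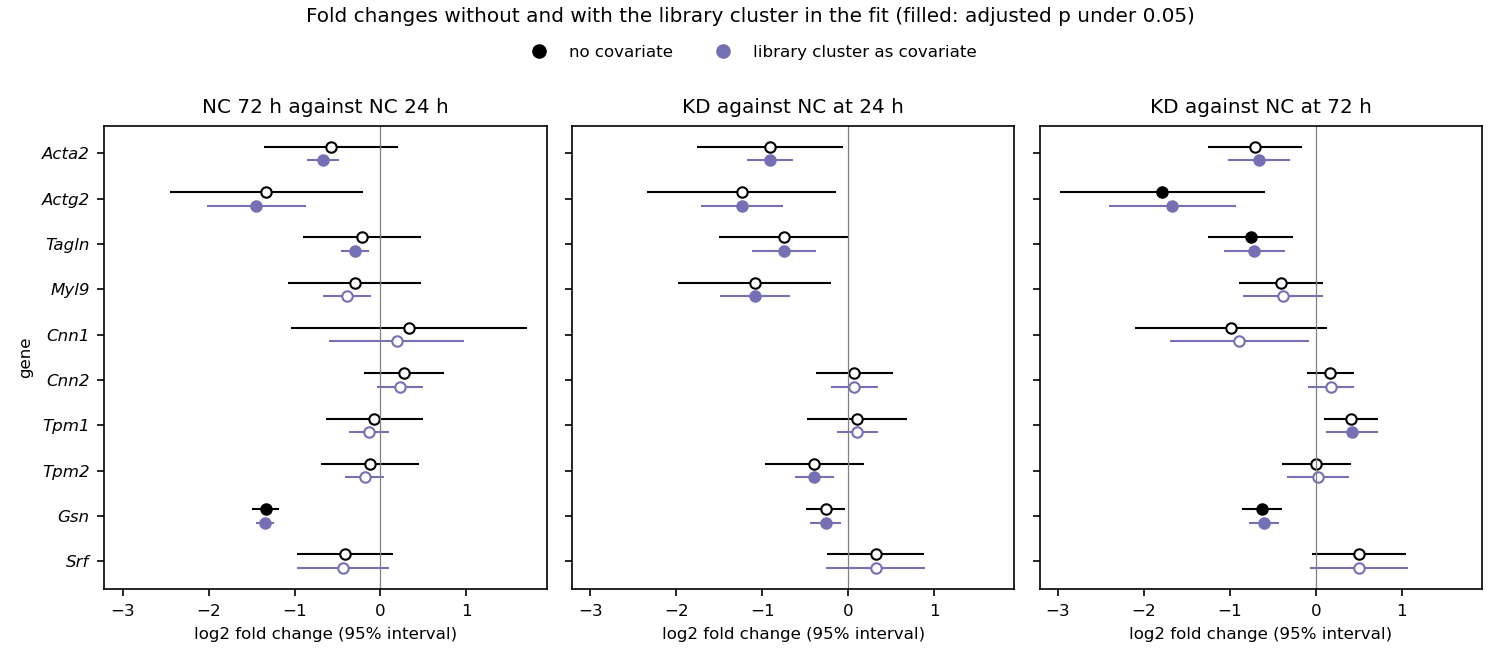
Log2 fold change of each gene with its 95% interval in 3 comparisons, NC 72 h against NC 24 h, KD against NC at 24 h and KD against NC at 72 h, without (black) and with (violet) the library cluster as a covariate, filled where the adjusted p-value was under 0.05. The estimates for Acta2 at 24 h are both -0.91, with a standard error of 0.40 without the covariate and 0.13 with it.

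The third comparison asked what differed after 72 h. Gsn, Tagln and Actg2 fell, 3 of the 10 genes, against 22.5% of the 54138 entries tested (12.1% lower and 10.4% higher). The median of the 10 was -0.51 against 0.01 over all entries, with 6 lower and 4 higher, and 5 reached an unadjusted p under 0.05, of which 4 were lower. With the cluster as a covariate 4 were called lower, Acta2 in addition, and Tpm1 was called higher, against 26.6% of all entries called (14.5% lower and 12.1% higher). Without KD 72 h replicate 1, KD 72 h replicate 3 or NC 72 h replicate 5 the count without the covariate was 1, and in these fits Gsn kept its call. Of the 11 fits that leave out a sample, Gsn lost its call in 0, Tagln in 5 and Actg2 in 7. Limma with voom weights on the recovered reads called 4, Gsn, Tagln and Acta2 lower and Tpm1 higher, but not Actg2. A fall in a bulk culture cannot be told apart from fewer cells that express the gene.

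Gsn lay at 178, 222 and 273 in KD 72 h and at 313, 344 and 382 in NC 72 h. No KD sample reached the lowest NC sample, as for 7.75% of all entries. The difference was -0.63 ± 0.11 (limma, adjusted p = 0.0013), which left 64.8% of the control level, and it was called in the larger cluster alone (-0.67 ± 0.094, limma adjusted p = 0.00047) and in the smaller cluster alone (-0.49 ± 0.11, limma adjusted p = 0.023). On the deposited RPKM without scaling it was -0.38 (limma, adjusted p = 0.042). All 9 tested Gsn entries were called lower.

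Tagln lay at 86.4, 105 and 118 in KD 72 h and at 119, 138 and 329 in NC 72 h. The groups did not overlap, but their nearest samples, 118 and 119, were close. The difference was -0.76 ± 0.23 (limma, adjusted p = 0.031) and with the cluster -0.71 ± 0.17 (limma, adjusted p = 0.0060). Without scaling of the deposited RPKM it was -0.51 (limma, adjusted p = 0.12), so the call rested on the scaling. Actg2 lay at 0.350, 0.800 and 2.13 in KD 72 h and at 0.904, 3.20 and 8.07 in NC 72 h. The groups overlapped. Its difference was -1.78 ± 0.56 (limma, adjusted p = 0.034), and -1.55 without scaling (limma, adjusted p = 0.053), on an average of 6 reads per KD 72 h library and 18.9 per NC 72 h sample.

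Acta2 lay at 181, 217 and 248 in KD 72 h and at 238, 273 and 746 in NC 72 h. The KD samples were close together, with an SD of 25.3 around a mean of 220, whereas the NC samples had an SD of 223 around 402. The difference was -0.71 ± 0.26 (limma, adjusted p = 0.062), and -0.66 ± 0.17 with the cluster (limma, adjusted p = 0.011). Tpm1, the alpha tropomyosin, lay at 130, 153 and 185 in KD 72 h and at 96.8, 101 and 169 in NC 72 h. Its difference was 0.41 ± 0.15 (limma, adjusted p = 0.062), and 0.42 ± 0.14 with the cluster (limma, adjusted p = 0.043).

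Myl9 differed by -0.40 ± 0.23 and Cnn1 by -0.99 ± 0.52, with limma adjusted p-values of 0.22 and 0.19. Tpm2 differed by 0.008 ± 0.19, with a 95% interval from -0.40 to 0.41. Cnn2 had 0.17 ± 0.13 and Srf 0.50 ± 0.26, with limma adjusted p-values of 0.36 and 0.18. Without scaling, Gsn was the 1 member called lower at 72 h, and Tpm1, Cnn2 and Srf were called higher, at 0.66, 0.42 and 0.73. Without scaling the median of all entries moved from 0.01 to 0.25, and 80.9% of calls were higher in place of 46.2%.

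The effects at 24 h and 72 h were compared by an interaction term over all samples. None of the 10 genes passed, against 0.192% of the 59266 entries tested, and 1 had an unadjusted p under 0.05. That gene was Gsn, with -0.35 ± 0.16 (limma, adjusted p = 0.38), a lower value meaning a larger fall at 72 h. For Acta2 the change of the effect was 0.21 ± 0.53, with a 95% interval from -0.87 to 1.30, and for Myl9 0.70 ± 0.53, with an interval from -0.40 to 1.79. With the cluster as a covariate 0 of the 10 were called as well (0.661% of all entries) and 1 had an unadjusted p under 0.05. Voom weights, the larger cluster alone (1.44% of all entries) and the smaller cluster alone (3.15% of all entries) called 0 too. These intervals leave room for large differences between the times.

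The split of the libraries was large in the contractile genes themselves. In the smaller cluster the mean of Acta2 was 2.71-fold that of the larger cluster in NC 24 h, 3.12-fold in KD 24 h and 2.50-fold in NC 72 h. Tagln was 2.37-fold, 2.33-fold and 2.25-fold higher in the same groups, and Myl9 3.04-fold, 2.63-fold and 1.97-fold. Actg2 was 3.70-fold, 3.80-fold and 2.98-fold higher. Tpm1 and Tpm2 were 1.52-fold to 2.34-fold higher in these 3 groups, whereas Gsn differed by 1.12-fold to 1.24-fold. Members were left out of the genes that defined the clusters. Other genes were kept whether or not they followed the members, so the split is not independent of them.

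In KD 72 h this gap was absent or small for most of these genes. Acta2 was 1.20-fold, Tagln 1.10-fold, Tpm2 0.903-fold, Tpm1 0.840-fold and Myl9 0.782-fold in the smaller cluster relative to the larger one, whereas Actg2 kept a ratio of 3.56 and Cnn1 of 2.06. The knockdown effect at 72 h, as estimated within the assigned clusters, therefore differed between them, tested as an interaction that was chosen after seeing the data. The test takes KD 72 h replicates 5 and 6 as counterparts of NC 72 h replicates 4 and 5, which the labels do not show. Deviations of same-cluster libraries of different groups correlated at a mean of 0.125. The test therefore cannot tell a differing effect from a mismatch of samples between the groups. Called lower in the smaller cluster were 5 of the 10 genes, against 5.9% of all entries called and 3.99% called lower. Acta2 differed by -1.05 ± 0.19 (limma, adjusted p = 0.0043), Tagln by -1.02 ± 0.19 (limma, adjusted p = 0.0053) and Myl9 by -1.30 ± 0.28 (limma, adjusted p = 0.012). Tpm1 differed by -0.86 ± 0.17 (limma, adjusted p = 0.0079) and Tpm2 by -1.01 ± 0.21 (limma, adjusted p = 0.011). At 24 h the same test called 0 of 9 genes and 0 of 52005 entries (0%), and 2 of the 9 had an unadjusted p under 0.05, Cnn2 and Srf. With voom weights the counts were 5 at 72 h and 0 at 24 h.

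Within the larger cluster at 72 h, 6 of the 8 genes tested were called, 3 lower and 3 higher, against 24.9% of all entries (13% lower and 11.9% higher). Acta2 fell by 0.28 on the log2 scale (limma, adjusted p = 0.048) and Tagln by 0.34 (limma, adjusted p = 0.041). Tpm1 rose by 0.73 ± 0.094 (limma, adjusted p = 0.00025), and Tpm2 (0.40) and Cnn2 (0.39) also rose. Within the smaller cluster 6 of 10 were called, all lower, against 10.5% of all entries (6.94% lower). There Acta2 fell by 1.31, Tagln by 1.35, Myl9 by 1.19 and Tpm2 by 0.59, and Tpm1 differed by -0.11 ± 0.15 (limma, adjusted p = 0.70). The smaller cluster holds 2 samples per group, so these values rest on KD 72 h replicates 5 and 6 and NC 72 h replicates 4 and 5, and the values of the larger cluster are those without them.

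**Figure D3:**
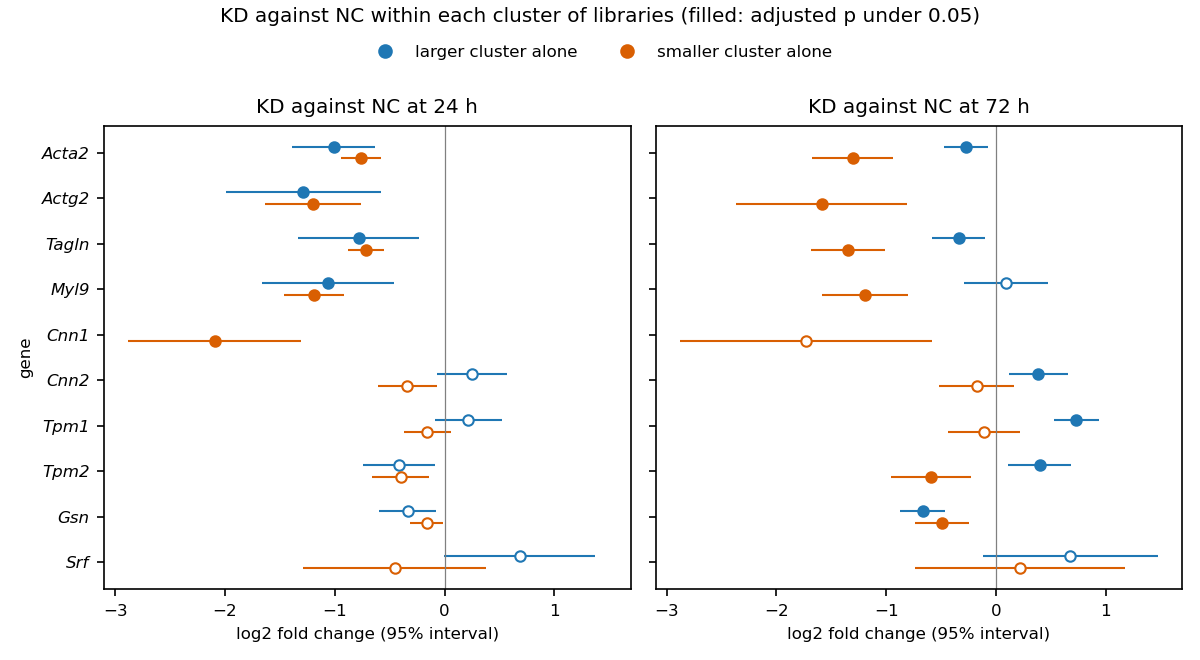
Log2 fold change of KD against NC with its 95% interval for each gene in the larger and the smaller library cluster alone, at 24 h and at 72 h, with filled points for adjusted p-values under 0.05. For Acta2 the clusters lie at -1.01 and -0.76 at 24 h, and at -0.28 and -1.31 at 72 h.

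Other markers moved with the clusters, and their part in the results was not tested. The 8 vascular smooth muscle markers include the members Actg2 and Cnn1. Their summed level was 11.5 to 29.5 scaled RPKM in smaller-cluster samples of KD 24 h, NC 24 h and NC 72 h. It was 2.48 to 10.2 in the larger cluster of these groups. In the smaller cluster of NC 24 h, Actg2 (mean 19.6) and Cnn1 (mean 4.50) made up most of a sum of 25.4 to 29.5. This sum therefore largely repeats the gap of these members. In the larger cluster of KD 72 h, Actg2 had a mean of 0.579 and Cnn1 of 0.849. The sum there was 3.33 to 4.66, so other listed markers carried part of it. Among the 8 markers, Myocd and Myh11 were near 0 throughout. Myocd, the cardiac and smooth muscle cofactor of SRF, was listed at 0 in every sample of 3 groups, and Myh11, the smooth muscle myosin heavy chain, had group means of 0.119 to 0.364. The summed macrophage markers were 20.2 to 34.8 in smaller-cluster samples of those 3 groups, 2.81 to 13.5 in the larger cluster, and 6.61 to 11.2 in the smaller cluster of KD 72 h. Of these 7 markers 2 passed the filter, and at 72 h of knockdown they differed by -3.68 and 1.24. The sum therefore does not stand for the macrophage markers as a whole. Preadipocyte marker sums were lower in the smaller cluster, with 339 to 523 in its samples of those 3 groups and 694 to 991 in the larger cluster. In KD 72 h they were 637 to 712 in the smaller cluster and 761 to 817 in the larger. Skeletal muscle markers, of which Acta1 was the one that passed the filter, summed to 15.9 to 38.3 in smaller-cluster samples of those 3 groups and to 6.14 to 13.2 in the larger cluster, and to 4.25 to 10.5 and 1.76 to 6.12 in KD 72 h. Endothelial and epithelial markers summed to at most 3.03 and 1.56. Pericyte markers summed to 13.6 to 29.4 and adipocyte markers to 27929 to 55303, so the labelled cell type was present in every sample. At 72 h the adipocyte sums were 27929 to 36512 in KD and 39171 to 50466.5 in NC. Pericyte sums were then 23.9 to 29.4 in KD and 19.2 to 23.2 in NC.

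Actb, the cytoskeletal beta actin, differed in the same libraries. It ran from 6156 to 35821 scaled RPKM within KD 72 h and from 19741 to 27466 in NC 72 h. The 18 cytoskeletal SRF targets together, of which Actb made up most, summed to 7133 and 7364 in the 2 smaller-cluster samples of KD 72 h and to 27271 to 37574 in its larger cluster. In smaller-cluster samples of the other groups they summed to 26338 to 37863. The next lowest sample was in KD 24 h, at 11452. No stretch of 50 bases was shared between the longest transcripts of Acta2 and Actg2 or Actb, or between those of Tpm1 and Tpm2. The longest exact run among these pairs was 47 bases, between Acta2 and Actb. Near matches were not searched, so shared reads were not tested.

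Besides the entry chosen, other entries of the same genes were tested. At 72 h all 3 Tagln entries and all 3 tested Actg2 entries were called lower. Tpm1 had 33 entries, of which 31 were tested and 5 were called higher, with log2 fold changes from 0.41 to 0.93. Among its Ensembl entries, 9 reached the outermost 3′ end, had means of 78.7 to 145 RPKM and differed by 0.41 to 0.43 at 72 h, with 0 called. Another 7 ended upstream of it, had means of 8.06 to 13.9 RPKM and differed by 0.68 to 0.88, with 1 called. The entry with 78.7 RPKM has a longer last exon that contains the last exons of some of the 7, so the sets are not fully separate. The difference between these ends was not tested, and entries of 1 gene share reads.

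Other contractile genes of smooth muscle were called in both directions. Of 22 listed genes, 13 were tested at 24 h, with 3 higher and 3 lower and a median of 0.14, and 14 at 72 h, with 4 higher and 2 lower and a median of 0.12. With the cluster covariate these counts were 3 and 4 at 24 h and 5 and 3 at 72 h. Of all entries, 22.7% were called at 24 h and 22.5% at 72 h, and 27.5% and 26.6% with the covariate. Over time in control cells 1 of 15 was lower, against 4.51% of all entries. This was Csrp1, at -0.72 ± 0.14 (limma, adjusted p = 0.0043). Mylk, the kinase that phosphorylates the myosin light chain, fell at 24 h by 1.21 ± 0.26 and at 72 h by 1.30 ± 0.32 (limma, adjusted p = 0.0049 and 0.011). Ppp1r12a, the targeting subunit of the opposing phosphatase, rose by 0.90 ± 0.19 at 24 h. Hspb6, a small heat shock protein of muscle, rose at 72 h by 1.18 ± 0.20 (limma, adjusted p = 0.00090).

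Of 8 SRF cofactors, 7 were tested, with 1 higher and 2 lower at 24 h and 1 in each direction at 72 h. The counts were the same with the covariate. Of all entries, 22.7% were called at 24 h and 22.5% at 72 h, and 27.5% and 26.6% with the covariate. Mkl2, a cofactor that binds monomeric actin, fell by 1.57 ± 0.26 at 24 h (limma, adjusted p = 0.0013) and by 1.22 ± 0.19 at 72 h (limma, adjusted p = 0.00044). Elk1, an ETS factor that partners SRF, fell by 1.56 ± 0.25 at 24 h. Fhl2, a LIM-domain protein, rose by 0.70 ± 0.21 at 24 h and was also called higher at 72 h. Srf itself lay at 1.26, 1.98 and 3.50 in KD 24 h and at 1.10, 1.59 and 2.11 in NC 24 h, and the groups overlapped.

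Targets of SRF outside the members were read against 11.1% of all entries called higher and 11.6% lower at 24 h, and 10.4% and 12.1% at 72 h. Of 18 cytoskeletal targets, 17 were tested, with 3 higher and 2 lower at 24 h and 4 higher and 0 lower at 72 h, at medians of 0.09 and 0.22. Filip1l rose by 1.60 ± 0.21 at 24 h and Zyx, the focal adhesion protein zyxin, by 0.85 ± 0.14 at 72 h. Of 13 immediate early targets, 2 of 9 rose at 24 h and 2 of 11 at 72 h, and none was called lower. With the covariate 4 of 9 immediate early targets rose at 24 h, and at 72 h 1 cytoskeletal target was called lower in place of 0. Of all entries, 27.5% and 26.6% were then called in either direction. Jun rose by 1.77 ± 0.41 at 24 h and Nr4a1 by 2.20 ± 0.46 at 72 h.

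Gsn belongs to a family of proteins that sever and cap filaments, and its relatives were called in both directions. Of 12 severing and capping genes 9 were tested, with 3 higher and 1 lower at 24 h and 1 in each direction at 72 h, with the covariate as well. For this list and those below, 22.7% of all entries were called at 24 h and 22.5% at 72 h. With the covariate the shares were 27.5% and 26.6%. Capg, a gelsolin relative that caps without cutting, rose by 0.71 ± 0.11 at 72 h, whereas Svil, which encodes supervillin, fell by 1.00 ± 0.26. Among 9 nonmuscle myosin genes 1 was called at each time, Mprip, which links myosin phosphatase to RhoA, at -1.49 ± 0.16 and -1.25 ± 0.17, and 2 were called lower at 72 h with the covariate. Among 8 TGF-beta receptor and SMAD genes, Tgfbr3, a coreceptor, fell at both times, by 1.74 ± 0.32 and 0.86 ± 0.12, and Smad7, an inhibitor of the pathway, rose by 1.29 ± 0.29 at 24 h.

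**Figure D4:**
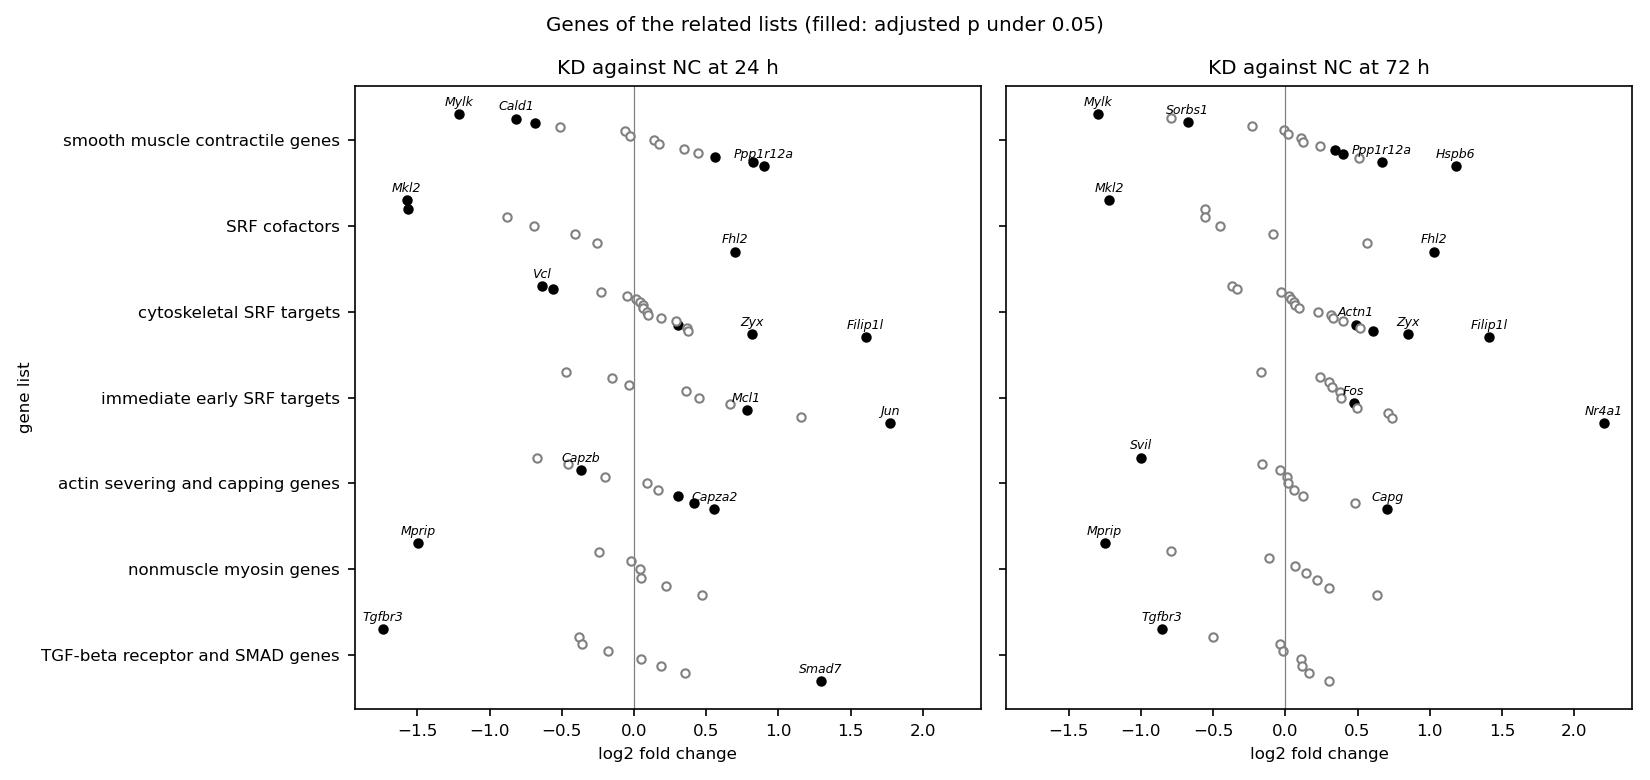
Log2 fold change of KD against NC at 24 h and 72 h for each tested gene of the 7 related lists, 1 point per gene, filled where the adjusted p-value was under 0.05 and with some called genes named. The other smooth muscle contractile genes lie on both sides of 0, from Mylk at -1.21 and -1.30 to Ppp1r12a at 0.90 at 24 h and Hspb6 at 1.18 at 72 h.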

How the data were processed

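Samples were the 24 libraries of 4 groups, taken from their titles. As the labels and methods describe, RNA was reverse transcribed with barcoded oligo-dT primers, so that reads come from transcript 3′ ends. The authors mapped them with Genomatix software (the version, build and strand handling for these libraries are not given in the sources used here), tested each time point with DESeq2, and deposited RPKM for RefSeq, Ensembl and GenBank entries side by side. Entries of 1 gene, overlapping genes and antisense genes can share reads. Decimal commas in the deposited table were read as points.

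The deposited values are RPKM and not counts, so a count test was not used. Library totals were recovered from the steps that 1 read makes in RPKM. Of low values per library, 94.4% to 95.6% were whole reads within a tolerance of 0.05, except for 77.3% in NC 72 h replicate 6. Recovered reads of some members were not whole in that library (1329.5 for Acta2), so its total is uncertain. Depth and limits cover counting error only. An entry was tested if the equivalent of 10 reads was reached in a number of samples equal to the size of the smaller group, and 15 reads in total. RPKM were scaled by a trimmed mean of log ratios (0.3 and 0.05 trimmed), and log2(scaled RPKM + 0.1) was fitted with limma 3.58.1 (R 4.3.3, eBayes with trend), two-sided, with Benjamini-Hochberg adjustment over all entries and a threshold of 0.05. Fold changes of low genes are understated on this scale. The fits were tested on simulated data.

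All 10 members are named. Of other lists, counts and up to 4 called genes with the largest change are named. The members and lists were chosen with earlier results of these data known. The study calls its replicates biological, and the labels do not say whether they are separate cultures or animals, so p-values measure the spread between these samples, which may be technical in part. Alternatives were other scalings, pseudocounts, filters and entries, voom weights, the library cluster as covariate or alone, a replicate block and leaving out each sample.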

Additional observations from a re-analysis of the deposited data

Results flagged for a closer look

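The knockdown effect at 72 h, as estimated within the assigned library clusters, differed by the test of that difference for 5 genes. The test takes the smaller-cluster samples of KD and NC as counterparts, which the labels do not show. The log2 fold change of the smaller cluster was lower than that of the larger cluster by -1.05 for Acta2, -1.02 for Tagln, -1.30 for Myl9, -0.86 for Tpm1 and -1.01 for Tpm2. For Tpm1 and Tpm2 the larger cluster gave called rises of 0.73 and 0.40, whereas the smaller cluster gave -0.11 and -0.59. KD 72 h replicates 5 and 6 also had low Actb levels, whose part was not tested. Acta2 was not low in these 2 samples, at 248 in both against 181 to 219 in the larger cluster of KD 72 h. Tagln, Myl9 and Tpm2 overlapped between the clusters of KD 72 h, and Tpm1 was lower in the smaller one (130 to 145 against 146 to 185). In NC 72 h replicates 4 and 5 Acta2 was 746 and 509, against 238 to 273 in the larger cluster of that group. The macrophage marker sums of KD 72 h replicates 5 and 6 (6.61 to 11.2) were low only against smaller-cluster samples of the other groups. In the larger cluster of KD 72 h these sums were 8.48 to 10.5.

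Srf in NC 72 h replicate 1 was 0.631 scaled RPKM, with the nearest of the other samples at 1.23, and stood apart by Dixon's criterion. Of 40 groups of values examined 1 stood apart, and chance gives about 1 in 20.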

How the results depend on the processing

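Clusters moved the counts of called genes most. Over time in control cells the count of 1 became 4 with the cluster covariate, 3 in the larger and 4 in the smaller cluster. It became 0 with Ensembl entries, where the Gsn entry had too few reads to be tested. Acta2, Tagln, Cnn1 and Srf had no Ensembl entry. At 24 h the count of 0 became 6, 4 and 5. At 72 h the count of 3 became 5, 6 and 6, 1 with Ensembl entries and 1 without the filter. Leaving out a sample gave 1 to 1, 0 to 4 (4 without KD 24 h replicate 4, 3 without replicate 3) and 1 to 4 (1 without KD 72 h replicates 1 or 3 or NC 72 h replicate 5, 4 without KD 72 h replicate 6 or NC 72 h replicates 2 and 3). With the covariate it gave 4 to 5, 5 to 7 (7 without KD 24 h replicate 6) and 4 to 5. The interaction count was 0 throughout.

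With the replicate block the counts were 1, 0, 2 and 0; the mean correlation of deviations was 0.016 for libraries that share a number, so the numbers do not pair them. Signs turned only for values that were not called in the report's comparisons without the clusters. Over time these were Cnn1 with the replicate block (-0.086), Tpm1 in the larger cluster (0.09) and Cnn2 in the smaller (-0.15). At 24 h they were Cnn2 (-0.34), Tpm1 (-0.16) and Srf (-0.45) in the smaller cluster. At 72 h they were Tpm2 with the block (-0.029), Myl9 in the larger cluster (0.091), and Cnn2 (-0.18), Tpm1 (-0.11) and Tpm2 (-0.59) in the smaller, and Tpm2 without NC 72 h replicates 2 and 3 (-0.082). For the interaction they were Tagln without scaling (0.18), without the filter (0.015), with 30 reads (0.003), with 1 entry per gene (0.019), with the covariate (0.063), in the larger cluster (0.43) and with NC 72 h replicates 2 and 3 as 2 samples (0.077), Srf in the larger (-0.02), and Acta2 (-0.55), Myl9 (-0.007) and Tpm2 (-0.20) in the smaller. Leaving out a sample turned signs within -0.086 to 0.67 for Cnn1, -0.21 to 0.10 for Tpm1 and -0.29 to 0.019 for Tpm2 over time, -0.05 to 0.21 for Cnn2 and -0.01 to 0.29 for Tpm1 at 24 h, -0.10 to 0.17 for Tpm2 at 72 h, and -0.27 to 0.23 for Tagln, -0.003 to 0.48 for Acta2, -0.026 to 0.23 for Cnn2 and -0.006 to 0.35 for Srf in the interaction. The causes were not tested. Of 505 other values 440 kept direction and call. Depth limits Cnn1, Actg2 and Srf.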

Other observations

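The genes outside the members whose levels were most like Acta2 over 23 samples were Cse1l, Tcf19, Prps1, Cks1b and Blvra, with Pearson r of 0.905, 0.900, 0.890, 0.887 and 0.887 among 11306 entries. Among the members, r with Acta2 was 0.971 for Tagln, 0.885 for Myl9, 0.831 for Actg2 and 0.819 for Tpm2. It was 0.538 for Gsn, 0.513 for Tpm1, 0.320 for Cnn2 and -0.10 for Srf. The samples share 4 groups and 2 clusters that differ in Acta2, and the values are a description.

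Marker lists of other cell types were also called at 72 h of knockdown, when 22.5% of all entries were. Of 8 myofibroblast markers 2 were higher and 2 lower (2 and 3 with the cluster covariate), with Lrrc15 at 2.76 and Fap at -1.86. Acta1, the skeletal muscle actin, was lower by -1.75 ± 0.53 and was the 1 of 8 skeletal muscle markers that was tested. Of 7 macrophage markers 2 were tested, with Csf1r higher at 1.24 and Lyz2 lower at -3.68. Of 8 adipocyte markers 3 were lower, at 24 h as at 72 h, and 4 at both times with the covariate. Of all entries, 11.6% were called lower at 24 h and 12.1% at 72 h, and 14.1% and 14.5% with the covariate. Pdgfrb, 1 of 4 pericyte markers tested, was higher at 0.59, and Cd34, 1 of 3 preadipocyte markers tested, at 2.02.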
